A study of Homo sapiens with 6 samples.

Results

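The genes described here are 47 genes of the ATF4 stress response and of tRNA charging, taken from a list of symbols that was drawn up with earlier results of these libraries known, by a rule that uses no measured value: transcription factors, stress effectors, secreted factors, enzymes of amino acid synthesis and one-carbon metabolism, and 18 cytosolic aminoacyl-tRNA synthetases. All 47 symbols were found among the 58735 genes of the deposited count table, and 46 were among the 14338 genes with enough reads to be tested. Symbols are those of Ensembl 94, so that TARS is the gene now named TARS1. The libraries came from BT549, an established human basal-like breast cancer cell line, as 3 libraries treated with the solvent DMSO and 3 treated with AS1842856, a small molecule that binds the transcription factor FOXO1, each for 48 h. The dose of AS1842856 is 200 nM in the sample labels and 1 μM in the study's methods, and which was used could not be settled here. The replicates were called biological, carry the letters A, B and C in both groups and come from a single cell line, so they measure the spread between cultures of BT549 alone.

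In the integrated stress response, kinases that sense amino acid shortage, misfolded protein, heme shortage or viral RNA phosphorylate the translation factor eIF2. Most protein synthesis then slows, while upstream reading frames let the mRNA of ATF4 be translated more. ATF4 protein, paired with a C/EBP factor, binds response elements near genes for amino acid transport, amino acid synthesis and tRNA charging, and induces regulators such as PPP1R15A that restore translation. Because ATF4 is controlled largely at translation, the amount of its mRNA is not a measure of its protein, and no protein was measured in these libraries.

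Libraries held between 15289500 and 22981832 counts, and TMM factors lay between 0.9949 and 1.006. The mesenchymal genes VIM, CDH2 and FN1 and the receptor gene EGFR, typical of basal-like cells, were detected in every library, at 91.6 CPM or above, and the luminal and epithelial genes ESR1, PGR, CDH1 and EPCAM at no more than 0.431 CPM. Of 6 blood and endothelial genes, PECAM1, CDH5, CD3E, LYZ and HBB were at no more than 0.12 CPM, and PTPRC lay between 0.7 and 1.56 CPM with DMSO and between 2.64 and 3.59 CPM with AS1842856. The part of PTPRC in the results was not tested. CPM are counts scaled to a common library size by TMM, a share of each bulk library, so that fewer cells making an RNA and less of it per cell cannot be told apart.

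The response element bound by ATF4 with a C/EBP factor has the core letters TGATGNAA, where N is any base. These letters were searched on both strands of the RefSeq promoter windows (GRCh38.p14), which run from 250 bases before to 50 bases after each gene's start. They were in 1270 of 35116 windows (3.62%), and in 1217 of the 27305 genes with a window (4.46%). A window was given for 37 of the 47 members, and 11 of them (29.7%) held the letters. Members had been listed in part as known targets of ATF4, so this share describes the list and is no test of it. Of the cytosolic synthetases usually named as ATF4 targets, 7 of 10 with a window held the letters (70%), and of the other cytosolic synthetases 0 of 4 did. The stretches of 30 bases around the match are shown for the 10 tested members that held it, to let the flanking bases be compared between them. Capitals mark the match, and each line is written 5′ to 3′ on the strand that reads TGATGNAA.
CEBPG, chr19:33374060-33374089, + strand: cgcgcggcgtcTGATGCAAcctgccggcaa
CHAC1, chr15:40953251-40953280, - strand: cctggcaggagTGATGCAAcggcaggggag
ASNS, chr7:97872458-97872487, - strand: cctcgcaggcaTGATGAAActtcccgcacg
AARS, chr16:70289675-70289704, + strand: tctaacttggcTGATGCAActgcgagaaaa
CARS, chr11:3057407-3057436, + strand: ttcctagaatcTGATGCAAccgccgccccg
GARS, chr7:30594834-30594863, - strand: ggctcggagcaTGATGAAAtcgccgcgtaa
IARS, chr9:92293692-92293721, + strand: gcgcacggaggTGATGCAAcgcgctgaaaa
MARS, chr12:57488053-57488082, - strand: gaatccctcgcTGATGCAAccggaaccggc
NARS, chr18:57621804-57621833, - strand: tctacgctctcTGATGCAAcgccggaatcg
TARS, chr5:33440956-33440985, - strand: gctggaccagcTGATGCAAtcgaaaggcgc

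FGF21, too rare to be tested, was the other member with the letters. The match began between 2 bases (CARS) and 209 bases (CHAC1) before the RefSeq start in CEBPG, CHAC1, ASNS, AARS, CARS, GARS, IARS and MARS, counted along the gene's strand. In NARS and TARS it began after the start, at bases 15 and 3 of the transcript. In CEBPG, ASNS and NARS the letters read along the gene and in the other 7 against it. A match describes the letters in the window and shows no binding.

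With AS1842856, 29 of the 46 tested members were higher (63.0%) and 3 were lower (6.52%), where 27.6% of all tested genes were higher and 28.4% lower. A gene was called when its Benjamini-Hochberg adjusted p in the quasi-likelihood test of edgeR was under 0.05. CTH, PPP1R15A, SESN2, STC2 and CHAC1 rose most, and GDF15, ALDH18A1 and CEBPB were the members that fell. The log2 fold change of AS1842856 against DMSO is written log2FC. Its median over the tested members was 0.17, against 0.00 for all tested genes, and 40 members had a value above 0 and 6 below. Most changes were small. When a log2FC of 0.5 or more in size was also required, 11 members were higher and 1 lower. The CPM of the groups did not overlap in 35 of the 46 members (76.1%), where 59.9% of all tested genes had no overlap. These shares describe a list chosen with results of these libraries known and carry no test of the list.

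**Figure D1:**
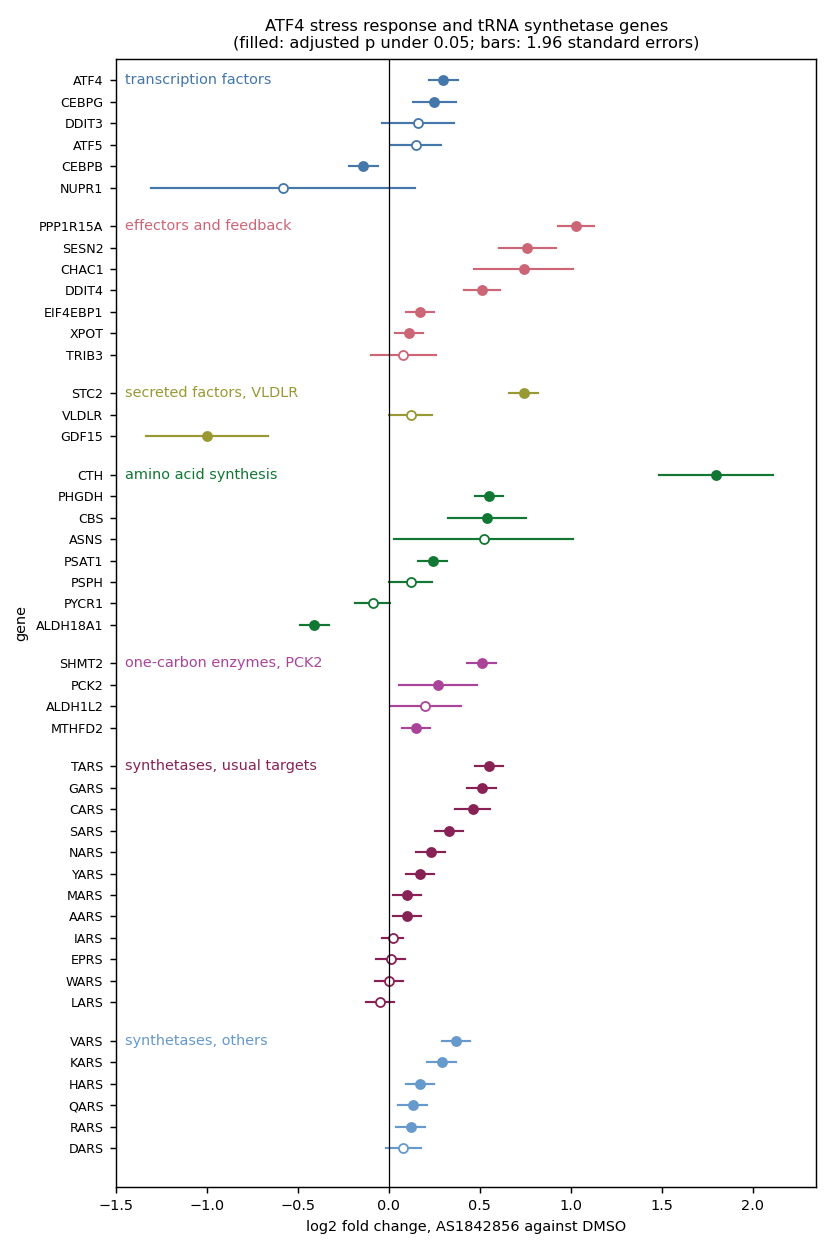
Log2FC (AS1842856 against DMSO, 3 libraries each) of the 46 tested members on the horizontal axis, grouped and coloured by role. Points are edgeR estimates with 95% intervals from the standard error, and filled points have an adjusted p under 0.05. CTH lies farthest to the right at 1.80 and GDF15 farthest to the left at -0.996, and no synthetase is a filled point below 0.

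Among the 6 transcription factors and cofactors, ATF4 and CEBPG rose, CEBPB fell, and ATF5, DDIT3 and NUPR1 did not pass the test. The shares were 33.3% higher, near the 27.6% of all tested genes, and 16.7% lower, beside 28.4%. ATF4 (ENSG00000128272, chr22:39519695-39522685), the factor that reads out eIF2 phosphorylation, measured 365.9, 344.2 and 355.4 CPM in DMSO replicates A, B and C and 422.6, 446.2 and 446.8 CPM with AS1842856. All 3 AS1842856 libraries lay above all 3 DMSO libraries. ATF4 rose by 23.4% (log2FC 0.30, SE 0.04, adjusted p = 4.25e-15). CEBPG, a C/EBP partner that pairs with ATF4 on response elements, was at 48.4, 47.3 and 47.7 CPM with DMSO and at 58.1, 57.4 and 55.1 CPM with AS1842856. The groups did not overlap, and the log2FC was 0.25 (SE 0.06, adjusted p = 4.45e-05).

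CEBPB, another C/EBP factor that is both a target and a partner of ATF4, was at 136.9, 124.0 and 126.8 CPM with DMSO and at 116.5, 116.4 and 119.8 CPM with AS1842856. Its groups did not overlap, yet DMSO replicate A stood above the other DMSO libraries. The fall was 0.14 on the log2 scale (log2FC -0.14, SE 0.04, adjusted p = 0.0027), and without DMSO replicate A the value was -0.097 and no longer passed the test (adjusted p = 0.0643).

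DDIT3 (ENSG00000175197) encodes CHOP, the pro-apoptotic factor of prolonged stress. It was at 12.6, 13.6 and 13.1 CPM with DMSO and at 13.4, 13.8 and 16.4 CPM with AS1842856. The groups overlapped, AS1842856 replicate C stood above the other 5 libraries, and the log2FC of 0.16 (95% interval -0.05 to 0.36) had an adjusted p of 0.204. The exons of DDIT3 share 355 bases with MARS on the opposite strand, which had 30244 counts over the 6 libraries against 1560 for DDIT3, and the use of strand in counting is not given in the sources used here. MBD6, also on the opposite strand, overlaps DDIT3 as well and had 9159 counts and a log2FC of 0.48. Reads of DDIT3 may therefore have been mixed with those of MARS and MBD6.

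ATF5, a factor related to ATF4 and translated in the same way, was at 32.3, 30.4 and 31.5 CPM with DMSO and at 33.8, 35.6 and 35.2 CPM with AS1842856. The groups did not overlap, but the log2FC of 0.15 (SE 0.07) missed the threshold in edgeR's test (adjusted p = 0.0582). It passed in limma on the deposited FPKM, with adjusted p between 0.0206 and 0.0396. ATF5 shares 626 exon bases with NUP62 on the opposite strand, whose log2FC was -0.14. NUPR1, a stress-induced cofactor, was rare in BT549, between 0.657 and 1.69 CPM over all libraries, and its value of -0.58 had a wide interval, from -1.30 to 0.14 (adjusted p = 0.175).

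**Figure D2:**
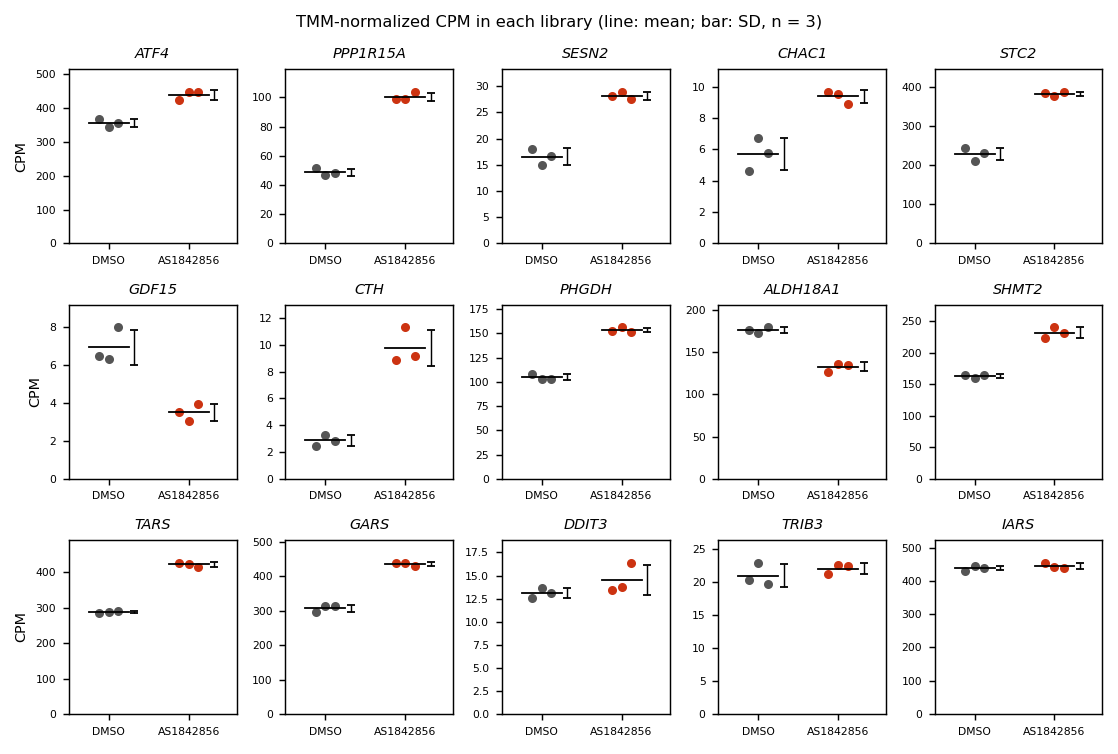
TMM-normalized CPM (vertical axes, each starting at 0) of 15 members in the 3 DMSO libraries (grey) and the 3 AS1842856 libraries (red). Each point is 1 library, the horizontal line is the group mean and the bar beside it the SD. The groups are apart in the first 12 panels, ATF4 to GARS, and overlap in DDIT3, TRIB3 and IARS.

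Of the role lists, the 7 effectors and feedback regulators of the stress response had the highest median. PPP1R15A, SESN2, CHAC1, DDIT4, EIF4EBP1 and XPOT were higher with AS1842856, TRIB3 did not pass the test, and the median log2FC was 0.51. The share higher was 85.7%, where 27.6% of all tested genes were higher. PPP1R15A (ENSG00000087074, chr19:48872392-48876057) encodes GADD34, which directs a phosphatase to eIF2 and so ends the response. It was at 51.5, 46.7 and 48.2 CPM with DMSO and at 98.5, 98.5 and 103.6 CPM with AS1842856. The groups were far apart, with a 2.05-fold rise (log2FC 1.03, SE 0.05, adjusted p = 7.02e-53).

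SESN2, a leucine sensor that restrains mTORC1, was at 18.1, 14.9 and 16.6 CPM with DMSO and at 28.1, 28.9 and 27.5 CPM with AS1842856. The lowest AS1842856 library was well above the highest DMSO library, and the log2FC was 0.76 (SE 0.08, adjusted p = 4.80e-16). CHAC1, an enzyme that degrades glutathione and that is used as a marker of ATF4 activity, rose from 5.7 ± 1.03 to 9.37 ± 0.401 CPM (mean ± SD of 3 libraries), a log2FC of 0.74. CHAC1 did not overlap between the groups, its SE was 0.14 (adjusted p = 7.64e-07), and its value ran from 0.59 to 0.85 with each library left out. DDIT4, an inhibitor of mTORC1 also called REDD1, rose from 72.1 ± 6.19 to 103.0 ± 2.82 CPM (log2FC 0.51, adjusted p = 9.03e-21).

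EIF4EBP1, the repressor of cap-dependent translation, rose by 12.3% (log2FC 0.17, adjusted p = 2.05e-05). XPOT, which exports tRNA from the nucleus, rose by 7.98% (log2FC 0.11, adjusted p = 0.0053), a rise that did not pass without DMSO replicate B (adjusted p = 0.0765) or in limma on log2(FPKM + 1) without a filter (0.083). TRIB3, a pseudokinase that dampens ATF4 and that is itself a known target, was at 20.3, 23 and 19.8 CPM with DMSO and at 21.2, 22.6 and 22.5 CPM with AS1842856. The TRIB3 values of the groups overlapped, with a log2FC of 0.08 and a 95% interval from -0.09 to 0.25 (adjusted p = 0.448). This interval lies below the log2FC values of PPP1R15A, SESN2, CHAC1 and DDIT4.

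The secreted factors STC2 and GDF15 went in opposite directions. STC2, a secreted glycoprotein induced by stress of the endoplasmic reticulum, was at 243.3, 210.7 and 231.6 CPM with DMSO and at 384.1, 376.4 and 386.7 CPM with AS1842856. The 3 treated libraries lay close together and above all DMSO libraries, a 1.67-fold rise (log2FC 0.74, SE 0.04, adjusted p = 1.04e-49). GDF15 (ENSG00000130513, chr19:18374731-18389176), a circulating stress hormone of the TGF-β family, was at 6.47, 6.32 and 7.97 CPM with DMSO and at 3.54, 3.02 and 3.93 CPM with AS1842856. Here every treated library lay below every DMSO library, and GDF15 fell by 49.8% (log2FC -0.996, SE 0.17, adjusted p = 3.56e-08). Leaving out any single library moved the value no further than from -1.09 to -0.89.

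VLDLR, the receptor for very low density lipoprotein, was at 37.4, 40.6 and 37.7 CPM with DMSO and at 38.6, 44.2 and 42 CPM with AS1842856. The groups overlapped and the log2FC of 0.12 did not pass (adjusted p = 0.114), although without AS1842856 replicate A it did (0.163, adjusted p = 0.0409). FGF21, a hormone made mainly by liver, had 0, 0 and 0 counts with DMSO and 1, 5 and 0 counts with AS1842856, too few for a fold change or a test.

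Of the 8 enzymes of amino acid synthesis, CTH, PHGDH, CBS and PSAT1 rose, ALDH18A1 fell, and ASNS, PSPH and PYCR1 did not pass the test, with a median of 0.38 on the log2 scale. CTH (ENSG00000116761, chr1:70411218-70439851), which makes cysteine from cystathionine, rose most of all members. Its CPM was 2.46, 3.26 and 2.85 with DMSO and 8.88, 11.3 and 9.14 with AS1842856. The groups were well separated, and CTH was 3.48-fold higher (log2FC 1.80, SE 0.16, adjusted p = 3.40e-23). CBS, which makes cystathionine in the preceding step, rose from 10.9 ± 0.731 to 15.9 ± 2.3 CPM (mean ± SD, n = 3; log2FC 0.54, adjusted p = 3.28e-06). Its near-identical copy CBSL held 25 counts against 1527 for CBS, and reads of the pair could be split between them.

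The 3 enzymes that make serine from a glycolytic intermediate are PHGDH, PSAT1 and PSPH, in that order. PHGDH, the first, was at 108.1, 103.3 and 103.2 CPM with DMSO and at 152.6, 156.2 and 151.6 CPM with AS1842856. The groups did not overlap, and the log2FC was 0.55 (SE 0.04, adjusted p = 4.04e-29). PSAT1, the second, rose from 199.1 ± 6.18 to 234.5 ± 9.3 CPM (log2FC 0.24, adjusted p = 7.28e-09). PSPH, the last, was at 38.6 ± 1.84 and 42 ± 2.38 CPM, with a value of 0.12 that did not pass (adjusted p = 0.0855) and that did pass without DMSO replicate A (0.160, adjusted p = 0.0488). Its pseudogene PSPHP1 held 917 counts against 4588 for PSPH, and reads of the pair could be split.

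ALDH18A1 and PYCR1 act in the synthesis of proline. ALDH18A1, the entry enzyme, was at 176.1, 172.3 and 179.3 CPM with DMSO and at 126.5, 135.7 and 135.3 CPM with AS1842856. All treated libraries were below all DMSO libraries, and ALDH18A1 fell by 24.6% (log2FC -0.41, SE 0.04, adjusted p = 1.54e-19). PYCR1, the last enzyme of the pathway, was at 80.2, 76.6 and 79.4 CPM with DMSO and at 71.9, 73.4 and 77.5 CPM with AS1842856. The groups overlapped, and the log2FC of -0.09 did not pass (adjusted p = 0.133).

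ASNS, asparagine synthetase and a long-studied target of ATF4, was hardly detected in BT549. It was at 1.78, 1.76 and 2.05 CPM with DMSO and at 2.1, 2.63 and 3.25 CPM with AS1842856, 257 counts over the 6 libraries. The treated libraries were all above the DMSO libraries, but the log2FC of 0.52 had a 95% interval from 0.02 to 1.01 and did not pass after adjustment (adjusted p = 0.0704). Without AS1842856 replicate A it passed, at 0.647 (adjusted p = 0.0391). An overlapping gene on the same strand, AC079781.5, shares 1985 of the 4455 exon bases of ASNS, and the pseudogene ASNSP1 held 156 counts, so the level of ASNS is uncertain. The per-library values of ASNS, CHAC1's leave-one-out values and those of other members outside the naming rule were added after the values had been seen.

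Of the mitochondrial one-carbon enzymes and PCK2, 3 of 4 were higher (75.0%), where 27.6% of all tested genes were higher. The number higher was 2 in DESeq2, 2 without the filter on low counts, and from 2 to 3 with each library left out. SHMT2, which splits serine into glycine and a folate-bound carbon unit in mitochondria, was at 164.4, 159.5 and 165.0 CPM with DMSO and at 223.5, 240.7 and 231.8 CPM with AS1842856. The groups did not overlap, and the log2FC was 0.51 (SE 0.04, adjusted p = 1.46e-29). MTHFD2, which oxidizes that carbon unit, rose from 102.8 ± 6.04 to 113.6 ± 3.88 CPM (log2FC 0.15, adjusted p = 0.00252), and did not pass without DMSO replicate A (0.093, adjusted p = 0.0915).

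PCK2, the mitochondrial form of phosphoenolpyruvate carboxykinase, was at 11, 10.1 and 9.31 CPM with DMSO and at 11.5, 12.3 and 13.1 CPM with AS1842856. Its groups were just apart, with a log2FC of 0.27 (SE 0.11, adjusted p = 0.0326). This call was lost in DESeq2 (adjusted p = 0.138), without the filter on low counts (0.0786), and without any of 4 single libraries: DMSO B, DMSO C, AS1842856 B or AS1842856 C (adjusted p from 0.0662 to 0.164). ALDH1L2, which frees the carbon unit as carbon dioxide, was at 14.4, 14.3 and 13.3 CPM with DMSO and at 16.6, 16.5 and 15.3 CPM with AS1842856. The groups did not overlap, and the value of 0.20 missed the threshold (adjusted p = 0.0705).

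Aminoacyl-tRNA synthetases join each amino acid to its tRNA. Of the 18 cytosolic synthetases, 13 were higher with AS1842856 and 0 were lower in edgeR's test, where 27.6% of all tested genes were higher and 28.4% lower. Their share higher was 72.2%, and their median log2FC was 0.15. None was lower at an unadjusted p under 0.05, in DESeq2 or in limma on FPKM, and 1, LARS, was lower without DMSO replicate A (-0.085, adjusted p = 0.0421). Of the 12 usually named as ATF4 targets, 8 rose (66.7%, median 0.13), and of the other 6, 5 rose (83.3%, median 0.15). The number of synthetases higher was 12 in DESeq2 and from 11 to 12 with each library left out. Only TARS and GARS passed when a change of at least 0.5 was also required.

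TARS (ENSG00000113407, chr5:33440696-33469539), for threonine, was at 286.1, 287.0 and 291.8 CPM with DMSO and at 427.1, 424.6 and 414.8 CPM with AS1842856. The libraries of each group lay close together and the groups were far apart, a rise of 46.4% (log2FC 0.55, SE 0.04, adjusted p = 2.63e-37). GARS (ENSG00000106105, chr7:30594681-30634033), for glycine in cytosol and mitochondria, was at 294.5, 312.2 and 313.7 CPM with DMSO and at 438.9, 438.7 and 428.7 CPM with AS1842856. GARS rose by 42% (log2FC 0.51, SE 0.04, adjusted p = 4.29e-33), with no overlap of the groups. CARS, for cysteine, rose from 53.5 ± 2.56 to 73.9 ± 1.26 CPM (log2FC 0.46, adjusted p = 2.25e-15).

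SARS, for serine, had a log2FC of 0.33 (adjusted p = 3.83e-16), NARS, for asparagine, of 0.23 (1.66e-08), and YARS, for tyrosine, of 0.17 (2.27e-05). MARS, for methionine, and AARS, for alanine, both had 0.10, with adjusted p = 0.0136 and 0.0296. The call of AARS was lost in DESeq2 (adjusted p = 0.055), without the filter on low counts (0.144) and without any of DMSO B, DMSO C, AS1842856 B or AS1842856 C (from 0.0577 to 0.115). The call of MARS was lost without the filter (0.0834) and without DMSO replicate B (0.0692).

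IARS, for isoleucine, had the highest level of the synthetases that did not pass. It was at 430.3, 443.4 and 439.6 CPM with DMSO and at 454.6, 440.3 and 439.0 CPM with AS1842856. These values overlapped, and the 95% interval of the log2FC, from -0.05 to 0.09 around 0.02, lies below the values of TARS and GARS. EPRS, for glutamate and proline, WARS, for tryptophan, and LARS, for leucine, had values of 0.01, 0.00 and -0.05 (adjusted p = 0.755, 0.937 and 0.243).

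Among the 6 synthetases not usually named as targets, VARS, for valine, was at 264.5, 266.3 and 267.5 CPM with DMSO and at 339.6, 342.8 and 351.4 CPM with AS1842856. The groups did not overlap, and the log2FC was 0.37 (SE 0.04, adjusted p = 2.66e-20). KARS, for lysine in cytosol and mitochondria, was at 175.6, 160.4 and 174.2 CPM with DMSO and at 210.3, 206.4 and 206.1 CPM with AS1842856. It rose by 21.9% without overlap of the groups (log2FC 0.29, SE 0.04, adjusted p = 1.36e-11).

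HARS, for histidine, rose by 0.17 (adjusted p = 6.18e-05), QARS, for glutamine, by 0.13 (0.00269) and RARS, for arginine, by 0.12 (0.00757) on the log2 scale. The call of RARS was lost without DMSO replicate A (adjusted p = 0.0558) and without AS1842856 replicate A (0.0597), and in limma on log2(FPKM + 1) without a filter (0.0746). HARS shares exon bases on the opposite strand with WDR55 and HARS2, whose log2FC values were 0.30 and 0.41 and which held 10740 and 10249 counts against 20699 for HARS. DARS, for aspartate, was at 75.3, 83.7 and 77.5 CPM with DMSO and at 82.3, 82.7 and 84.3 CPM with AS1842856. DARS values overlapped between the groups, and the log2FC of 0.08 did not pass (adjusted p = 0.16).

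The synthetases were also grouped by structure and assembly, after their values had been seen and without a test. Class II enzymes, which share an antiparallel fold at the active site, were higher in 7 of 8 cases with a median log2FC of 0.26, and class I enzymes, built on a Rossmann fold, in 6 of 10 with a median of 0.11. EPRS, which charges with glutamate and proline, was counted in class I alone. Of all tested genes, 27.6% were higher. Of the 10 enzymes outside the multisynthetase complex, 9 were higher (median 0.28), with WARS the exception. Of the 8 in the complex, 4 were higher (median 0.09), namely KARS, QARS, RARS and MARS. The calls of AARS, MARS and RARS were lost in some alternatives, as given above.

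For most amino acids, mitochondria charge their tRNAs with a separate enzyme, and these gave a comparison within the same amino acid. Of 17 mitochondrial synthetases, 3 were higher and 4 lower with AS1842856, with a median log2FC of 0.03. Their shares, 17.6% higher and 23.5% lower, lay below the 27.6% and 28.4% of all tested genes. LARS2 had -0.49 (adjusted p = 1.18e-11), RARS2 had -0.30 (2.87e-07) and HARS2 had 0.41 (3.03e-15). In 16 pairs of a cytosolic and a mitochondrial enzyme, the cytosolic log2FC was above its partner's in 11 and below it in 5, and the median difference was 0.18. The widest gap was between TARS at 0.55 and TARS2 at -0.28, and HARS at 0.17 lay below HARS2 at 0.41. The differences within pairs were not tested.

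**Figure D3:**
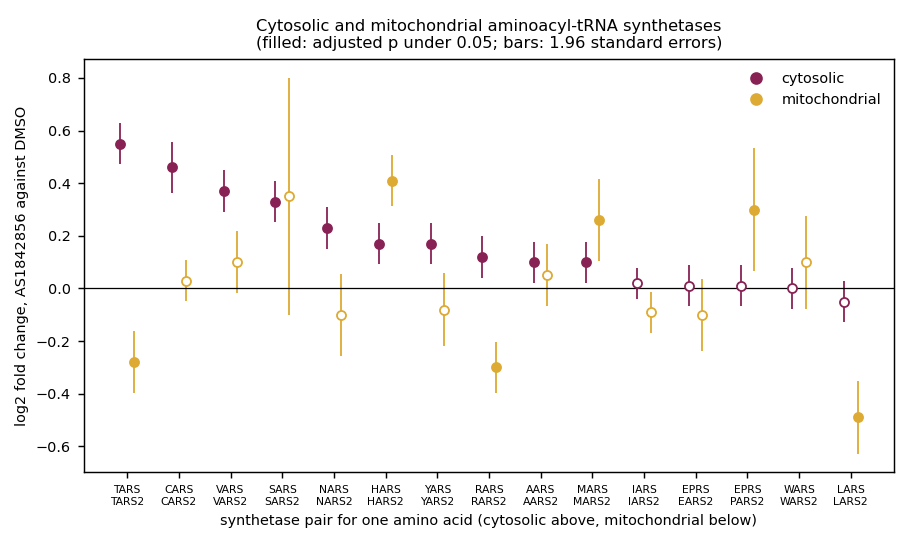
Log2FC (vertical axis, AS1842856 against DMSO) of the cytosolic (purple) and the mitochondrial (yellow) synthetase for the same amino acid, ordered along the horizontal axis by the cytosolic value. EPRS, which charges with glutamate and proline, is shown beside EARS2 and PARS2, and 15 of the 16 pairs are drawn. Bars are 95% intervals from the standard error, filled points have an adjusted p under 0.05, and TARS at 0.55 and TARS2 at -0.28 form the widest gap.

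The promoter letters and the fold changes were set side by side for the members with a RefSeq window. The 10 tested members with the letters had a median log2FC of 0.36, from 0.02 (IARS) to 0.74 (CHAC1), and 8 of them were higher. The 26 tested members whose window lacked the letters had a median of 0.16, from -0.996 (GDF15) to 1.80 (CTH), and 17 were higher. Of all tested genes, 27.6% were higher. Within the synthetases the medians were 0.23 for 7 with the letters, 6 of them higher, and 0.13 for 7 without, 5 of them higher. The ranges overlapped, and CTH and PPP1R15A, with the largest rises, had no match in their windows. In the other lists of the pathway, genes with the letters went in both directions. Among them, ATF3 (log2FC 1.14), SLC1A5 (0.58), MTHFD1L (0.23) and PPP1R15B (0.12) were higher. JDP2 (-0.70), HERPUD1 (-0.65) and SLC7A1 (-0.30) were lower, and SLC1A4 (-0.15) and YARS2 (-0.08) were not called. A link between the letters and the fold changes was not tested.

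Levels between genes were compared as deposited FPKM, which are divided by gene length. EIF4EBP1 had the highest level of the members in both groups, a mean of 239.8 FPKM with DMSO and 269.6 with AS1842856, followed by ATF4 (140.4 and 173.4), PSAT1 (90.4 and 106.5) and GARS (73.4 and 104.2). FGF21, NUPR1 and ASNS were the lowest in both groups, and no mean of theirs reached 0.6 FPKM. STC2 moved from rank 17 of the 47 levels with DMSO (37.1 FPKM) to rank 7 with AS1842856 (62), and ALDH18A1 from rank 11 (46.4) to rank 23 (35). PPP1R15A rose from 15.7 to 32.2 FPKM and passed from rank 29 to rank 24. CTH, with the largest fold change, stayed among the rarer members, at 1.18 FPKM with DMSO and 4.02 with AS1842856.

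The step above ATF4 was read from 15 genes for the eIF2 kinases, eIF2, its exchange factor eIF2B and their regulators. Of these, 7 were higher and 5 lower with AS1842856, with a median log2FC of 0.02. These counts are 46.7% and 33.3% of the list, where 27.6% of all tested genes were higher and 28.4% lower. In DESeq2, 5 were higher and 4 lower. EIF2B5, the catalytic subunit of eIF2B, rose from 38.1 ± 0.547 to 62.4 ± 2.24 CPM (mean ± SD of 3 libraries), a value of 0.71 (adjusted p = 4.00e-26), and EIF2B4 rose by 0.40 (6.01e-08). EIF2AK4, the kinase GCN2 that senses uncharged tRNA, fell from 80.3 ± 4.87 to 60.4 ± 2.47 CPM, a value of -0.41 (adjusted p = 2.04e-13). IMPACT, an inhibitor of GCN2 activation, also had -0.41 (adjusted p = 2.42e-04). These are mRNA levels, and the phosphorylation of eIF2 was not measured.

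Among 18 further genes usually listed as ATF4 targets, many of them amino acid transporters, 6 were higher and 6 lower, with a median log2FC of -0.22. These shares, 33.3% in each direction, are near the 27.6% and 28.4% of all tested genes. SLC7A11, the cystine transporter, rose from 25.2 ± 1.53 to 78.7 ± 4.62 CPM (log2FC 1.64, adjusted p = 1.03e-73), and ATF3, a stress-induced repressor, rose from 13.7 ± 1.47 to 30.2 ± 1.5 CPM (1.14, adjusted p = 9.12e-29). SLC6A9, a glycine transporter, fell from 42.6 ± 4 to 15.9 ± 0.222 CPM (log2FC -1.43, adjusted p = 8.34e-47). FAM129A, a target also known as NIBAN1, fell from 177.1 ± 5.3 to 66.2 ± 2.26 CPM (-1.42, adjusted p = 1.11e-88). The promoter letters were in 7 of the 15 genes of this list with a window (46.7%), among them the risen ATF3, SLC1A5 and MTHFD1L and the fallen JDP2 and SLC7A1.

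Of 16 genes of the ATF6 and XBP1 branches of the unfolded protein response, which run beside the ATF4 branch, 5 were higher and 10 lower, with a median log2FC of -0.17. Their shares, 31.2% higher and 62.5% lower, stand beside 27.6% and 28.4% of all tested genes. HSPA5, the chaperone BiP that binds the sensors of these branches, fell from 1080.2 ± 35.6 to 785.0 ± 21.7 CPM (log2FC -0.46, adjusted p = 6.95e-32). HERPUD1, a part of the degradation machinery of the endoplasmic reticulum, had -0.65 (adjusted p = 1.22e-11), the sensor ATF6 itself -0.50 (3.36e-16) and the chaperone-associated CRELD2 -0.44 (1.39e-10). Among the 16 genes of this list, HERPUD1 alone held the promoter letters TGATGNAA in its window. Of 6 other cytosolic synthetase subunits and scaffold proteins, FARSA and FARSB, the subunits for phenylalanine, were higher (0.25 and 0.14, adjusted p = 1.05e-08 and 0.00344), and the scaffold AIMP2 was lower (-0.22, adjusted p = 0.00348). The CPM of the groups overlapped in FARSB and AIMP2.

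**Figure D4:**
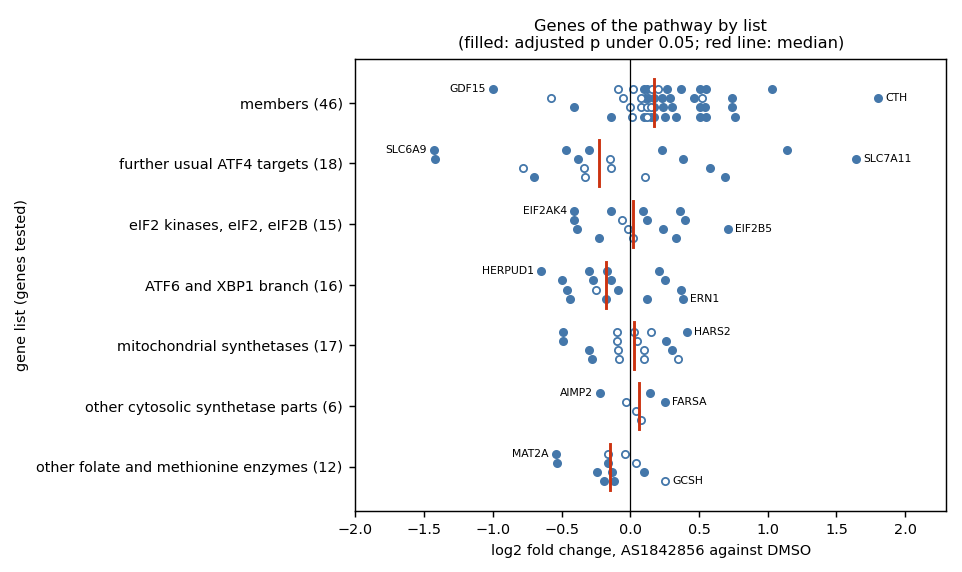
Log2FC (horizontal axis, AS1842856 against DMSO) of each tested gene in the members and in 6 other lists of the pathway (vertical axis, number tested in brackets). Each point is a gene, filled where its adjusted p is under 0.05, and the red line is the median of the list. The members have a median of 0.17, the further ATF4 targets of -0.22, the ATF6 and XBP1 branch of -0.17 and the mitochondrial synthetases of 0.03.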

How the data were processed

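RNA-Seq was measured in 6 BT549 libraries, grouped by the treatment in the sample labels. The authors mapped reads with STAR after base calling with CASAVA, per the study's methods, while the submitters' processing notes name Bowtie 0.12.2, GRCh38 and hg38 without a role. The counting tool and the use of strand are not given in the sources used here. The authors deposited raw counts per gene, without normalization, and FPKM per library, divided by gene length and library size. All 58735 gene identifiers matched GENCODE release 29 (Ensembl 94, GRCh38), which gave symbols, positions and exon overlaps.

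The counts were tested with edgeR 4.0.16 (R 4.3.3). Low genes were removed by filterByExpr (minimum count 10, minimum total 15), which left 99.9% of the counts, and TMM scaling was applied. The groups were compared over all 14338 genes by glmQLFit with robust estimation and glmQLFTest without a block. Calls were made at a Benjamini-Hochberg adjusted p under 0.05. The standard error was the size of the log2 fold change divided by the square root of F. The common biological coefficient of variation was 0.0374, and depth between 15289500 and 22981832 counts limits the rarest members. Permuting 3 against 3 libraries exactly, two-sided, allows no p under 0.1 for 1 gene. A level of 3 counts was set as a floor, which covers counting error only, since PCR copies cannot be told from separate molecules. It entered no filter, call or fold change.

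The alternatives were DESeq2 1.42.0, its size factors in edgeR, library totals, no filter, a mean of 50 counts or more, omission of single libraries, a block for the replicate letter, limma-trend (limma 3.58.1) on log2(FPKM + 1) or log2(FPKM + 0.1) at a minimum mean of 0.5 FPKM and on log2(FPKM + 1) without that minimum, and a change of at least 0.5. The scripts were first tested on simulated data. The members and lists were chosen with earlier results of these data known, and the lists of the pathway were written from general knowledge. All members are named. Per-library values are given for ATF4 and DDIT3, for up to 2 members of each role list with the largest rise and the largest fall among those called, and for the member not called with the highest level. Up to 4 called genes of each other list are named by absolute log2 fold change, and some single genes of those lists are not reported here.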

Additional observations from a re-analysis of the deposited data

How the results depend on the processing

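Over 15 alternatives, the log2 fold changes of the members gave 686 values, of which 647 kept their direction and their side of the threshold, 24 lost the call, 7 gained one and 8 turned sign. The values that turned sign were all uncalled and near 0: EPRS (from -0.003 to 0.031 with each library left out) at -0.000 without AS1842856 replicate B and -0.003 without DMSO replicate A, and WARS at -0.000 with a mean of at least 50 counts, -0.009 without a filter, and -0.019, -0.012, -0.000 and -0.030 without AS1842856 A, AS1842856 C, DMSO A and DMSO B (from -0.030 to 0.043 with each library left out). Over all genes, the median shift in log2FC from the fit used for calls was 0.002 with DESeq2 size factors and -0.004 with library totals. The largest such shift in any alternative was -0.014, without the filter on low counts. Requiring a change of at least 0.5 left 11 members higher, 1 lower and 2 synthetases higher. limma on log2(FPKM + 1) without a filter called 1 one-carbon member higher, 0 factors lower, 1 other synthetase part higher and 0 lower, and lost the calls of CEBPB, MTHFD2, PCK2, RARS and XPOT (adjusted p from 0.062 to 0.0918). limma with a filter called 1 other synthetase part higher at either pseudocount. The other folate and methionine enzymes had 0 higher without a filter on counts and by limma on log2(FPKM + 1) with and without a filter, and 4, 4 and 3 lower by limma with log2(FPKM + 1), log2(FPKM + 0.1) and no filter.

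With each library left out, the count of members higher ran from 25 to 30 and that of secreted members from 1 to 2 (2 without AS1842856 A). Lower factors ran from 0 to 1 (0 without DMSO A) and lower synthetases from 0 to 1, both over all 18 and over the usual targets (1, LARS, without DMSO A). Mitochondrial synthetases higher ran from 1 to 3 (1 without DMSO A), other synthetase parts from 1 to 3 higher (1 without AS1842856 A) and 0 to 1 lower (0 without AS1842856 B), and ATF6 and XBP1 branch genes from 3 to 5 higher (3 without DMSO C or AS1842856 B). Other folate and methionine enzymes ran from 0 to 1 higher (0 without DMSO B, AS1842856 B or AS1842856 C). With the replicate letter as a block (replicate block), 29 members were higher and 3 lower, and no member changed its call. Libraries of the same letter did not deviate together (correlations of deviations -0.135, -0.00208 and -0.0959 over 6129 genes), so the letters were not taken as pairs.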

Other observations

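The cytosolic and further folate, glycine and methionine enzymes, which stand beside SHMT2, MTHFD2 and ALDH1L2 in the same pathways, were lower more often than higher. Of 14 listed enzymes 12 were tested, and their median log2FC was -0.15, with 1 higher and 7 lower. These are 8.33% and 58.3% of those tested, beside 27.6% and 28.4% of all tested genes. The number lower was 6 in DESeq2, 4 in limma with a filter at either pseudocount, and 3 in limma without a filter. MAT2A, which makes the methyl donor S-adenosylmethionine, fell from 656.2 ± 13.6 to 450.9 ± 9.58 CPM (mean ± SD of 3 libraries; log2FC -0.54, adjusted p = 2.26e-38). TYMS, which makes thymidylate, had -0.24 (adjusted p = 3.67e-04). SHMT1, the cytosolic counterpart of SHMT2, had -0.16 (adjusted p = 0.0068), against 0.51 for SHMT2. The difference between SHMT1 and SHMT2 was not tested.

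Cystine uptake by SLC7A11 and cysteine synthesis by CTH both end in cysteine, and these genes had the largest fold changes of their lists, 1.64 and 1.80. SLC3A2, the chain that SLC7A11 shares with other transporters, had a log2FC of 0.69 (adjusted p = 6.36e-50), and SLC7A5, another partner of SLC3A2, had -0.47 (4.40e-29).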
